A study of Zea mays with 4 samples.

Results

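On the maize array, 24 probe sets with no gene in the platform's probe-to-gene table had clearly lower signals in both CCR mutant samples than in both WS samples. They were selected on these measured values: the lower WS value minus the higher CCR mutant value, called the gap here, was at least 0.7 on the log2 scale, and both WS values were at least 6. They came from 8460 probe sets without a gene that reached 6 on both WS arrays, among 16102 without a gene and 17555 in all once controls were left out. Because the difference between the groups chose the members, their lower signal is a description. P-values given for members below come from the same contrast and are not used as evidence for it.

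RNA came from young stacked internodes of maize at the stage of 6 to 7 leaves, with 2 samples per group and 1 Affymetrix array per sample. The CCR mutant samples are described as plants with reduced cinnamoyl-CoA reductase (CCR); the sources used here give neither the allele nor the genetic background, and no treatment is named for them. The WS samples are named only WS, a term the labels do not explain, and their labels also record a drought treatment of 36 h at an REW of 20 to 30%. Each WS sample joined an extract of 185 or 215 µg with 3 others of 1 µg each, whereas the CCR mutant samples were single extracts of 144 and 182 µg. Day and night temperatures were 25 °C and 22 °C for both groups, under light for 16 h and darkness for 8 h. Genotype, recorded drought and pooling thus cannot be told apart in any difference given here. Whether 2 samples of 1 group were taken from different plants is not stated, so the p-values given reflect sample-to-sample spread that could be technical, and 4 arrays limit the precision.

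CCR reduces cinnamoyl-CoA esters to aldehydes, the first step that is committed to monolignols, the building blocks of lignin. Lignin stiffens the secondary walls of xylem vessels and fibres in the stem. A probe set is a group of short oligonucleotides designed against the consensus of a cluster of expressed sequences. In names such as Zm.3303.2.A1_at the number after Zm is that cluster, and probe sets with the same number were designed from related sequences. Endings mark how specific the probes are: _a_at recognises several transcripts of 1 gene, while _s_at and _x_at may also recognise transcripts of other genes. What the members encode is not given in the files used here, so no gene name or function is attached to them.

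The levels are log2 values, so a difference of 1 is a doubling of signal. Reporter probe sets were assumed to show the level without a matching transcript. Of 66 of these, 65 stayed at or below 3.43 on every array, with a median of 2.07, and 1 lay between 13.51 and 13.77 and was not used for this level. On each array 11038 to 11056 probe sets reached 4. The CCR gene cncr1 was at 10.99 and 10.13 in WS against 8.59 and 9.14, which left 30.9% of the WS signal as a geometric mean (difference -1.70, SE 0.38, limma adjusted p = 0.68). In the other monolignol genes with a named probe set, PAL1, 4CL, CAD2 and cncr2, the differences lay between -0.11 and 0.04. Further genes of the pathway were not assessed. Secondary wall genes were present, as 4 of 4 (bk2, cesa10, cesa11 and CesA12) had values from 9.68 to 10.82. The meristem gene kn1 had values from 8.35 to 9.04, while lg3, listed with it, was dimmer at 5.29 to 6.28. Both were lower in the CCR mutant, with differences of -0.29 (SE 0.26) for kn1 and -0.38 (SE 0.37) for lg3. The summed signal of kn1 and lg3 on the log2 scale was 9.24 and 8.54 in WS against 8.64 and 8.54. Leaf genes were bright too, at 7.05 to 13.6 over 5 genes, and their summed signal on the log2 scale was 14.46 and 14.19 in WS against 14.32 and 14.46. For secondary wall genes the summed signal was 12.49 and 12.13 in WS against 11.99 and 12.37. The part of tissue makeup in the members' differences was not tested. In these whole-tissue samples fewer cells of a type and less RNA per cell cannot be told apart.

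In 22 of the 24 members the difference, CCR mutant minus WS, ran from -4.91 to -0.84. The other 2 were at the reporter level in the CCR mutant and have only a bound, given next. The median over all 24 was -1.23, also with these 2 at their bounds, where all 11085 tested probe sets had a median of -0.05. The signal left in the CCR mutant had a median of 42.6% of WS. By size of the difference, 8 members were lower by over 2 on the log2 scale, 7 by 1 to 2 and 9 by less than 1. The 8 members in the first class also had larger differences than cncr1.

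**Figure D1:**
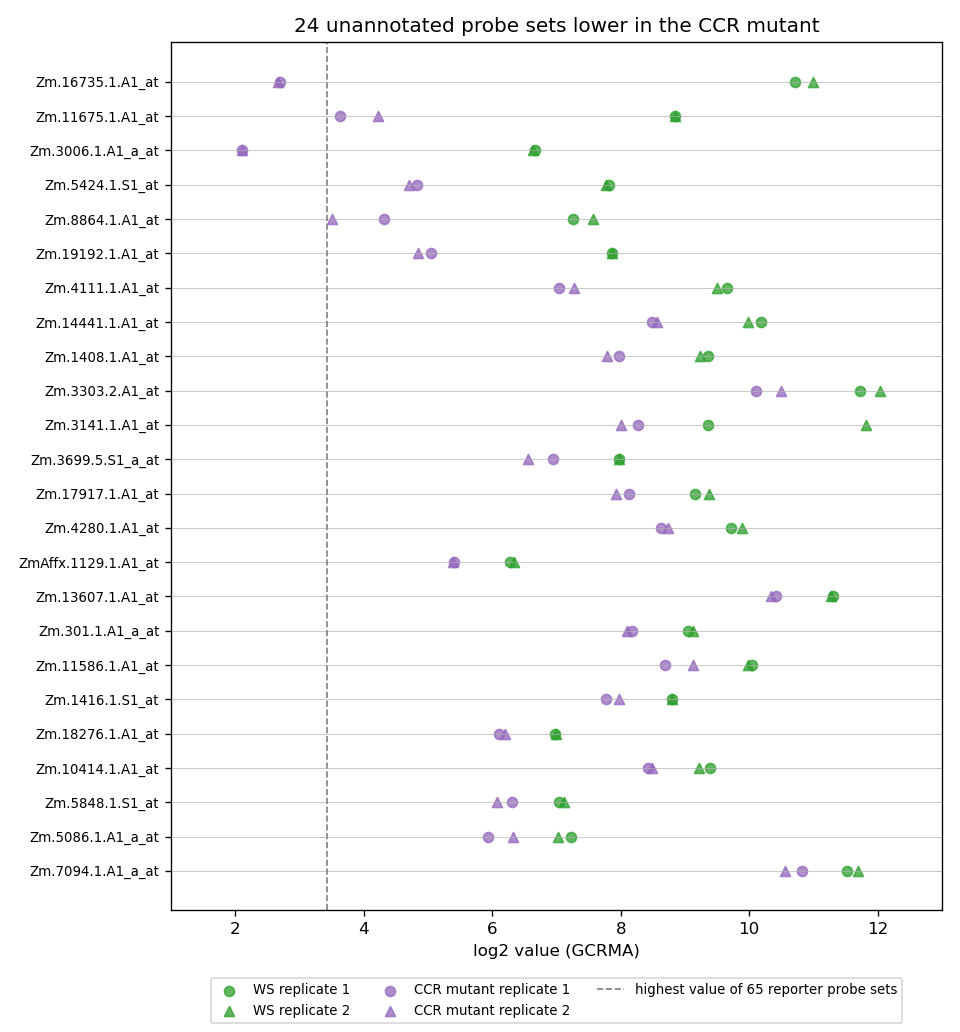
Log2 value on each of the 4 arrays for the 24 members, in order of the gap between the groups; circles are replicates 1, triangles are replicates 2, and the dashed line is the highest value of 65 reporter probe sets (3.43). The purple CCR mutant points lie left of the green WS points in all rows, as the choice of members requires, and for Zm.16735.1.A1_at and Zm.3006.1.A1_a_at they lie left of the dashed line.

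In 2 members both CCR mutant arrays were at the reporter level. Zm.16735.1.A1_at had values of 10.71 and 11.00 in WS, but only 2.69 and 2.67 in the CCR mutant. Its mutant signal was at least 172-fold lower, measured against the reporter level of 3.43, so at most 0.582% of the WS signal was left. It had the widest gap of the 24 members. Zm.3006.1.A1_a_at had 6.66 and 6.63 in WS against 2.11 and 2.10 in the mutant. That is at least 9.29-fold lower, with at most 10.8% left. Its WS arrays were 0.03 apart. Its CCR mutant arrays were 0.01 apart at values below the reporter level, so that distance is not read as tightness. For these 2 the fitted differences of -8.18 and -4.54 depend on values below the reporter level and are not used as sizes.

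Another 2 members were just above that level in the CCR mutant. Zm.11675.1.A1_at was at 8.84 on both WS arrays and at 3.64 and 4.22 on the CCR mutant arrays, lower by a log2 difference of -4.91 (SE 0.23) that left 3.32% of the signal. Zm.8864.1.A1_at was at 7.25 and 7.57 in WS against 4.31 and 3.50, a difference of -3.51 (SE 0.33) that left 8.81%. The CCR mutant arrays were 0.58 apart in the first and 0.81 in the second, farther than the WS arrays of either, and stayed well below WS.

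A measurable signal remained in the other 4 members of the first class. Zm.5424.1.S1_at went from 7.81 and 7.77 in WS to 4.83 and 4.70, with 12.3% left, and Zm.19192.1.A1_at from 7.86 on both WS arrays to 5.04 and 4.84, with 13.2% left. Zm.4111.1.A1_at went from 9.65 and 9.50 in WS to 7.04 and 7.28, and kept 18.8%. The groups were tight and far apart in these 3. Zm.3141.1.A1_at was not tight: its WS arrays were at 9.37 and 11.81 and its CCR mutant arrays at 8.27 and 8.01. Its difference of -2.45 (SE 0.91) shrank to -1.23 when WS replicate 2 was left out and grew to -3.67 when WS replicate 1 was left out. It was the only one of the 24 members whose gap, 1.10, was narrower than the distance between arrays of 1 group, 2.45.

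**Figure D2:**
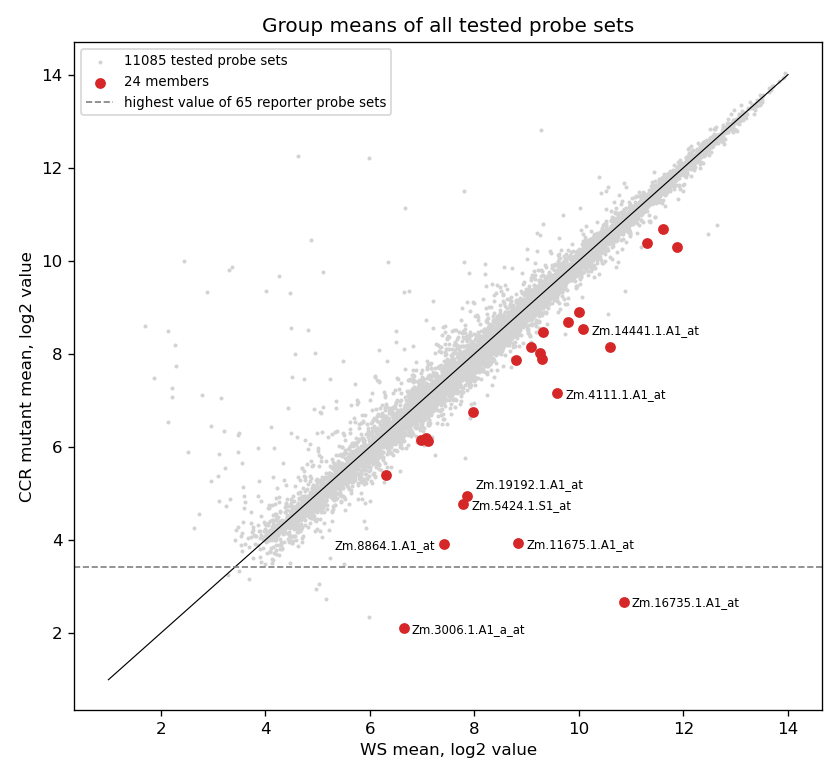
Mean log2 value in the CCR mutant (vertical) against that in WS (horizontal) for 11085 tested probe sets in grey and the 24 members in red, each a mean of 2 arrays; the solid line marks equal means and the dashed line the reporter level of 3.43. The members Zm.16735.1.A1_at and Zm.3006.1.A1_a_at lie below the dashed line, and most of the others run close to the lower edge of the grey cloud.

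The remaining 16 members kept between 33.4% and 56.1% of the WS signal, and their CCR mutant values of 5.39 to 10.82 were all well above the reporter level. Of the 7 that were lower by 1 to 2, Zm.3303.2.A1_at had 11.73 and 12.03 in WS against 10.10 and 10.50 (difference -1.58, SE 0.20). Zm.14441.1.A1_at had 10.18 and 9.98 against 8.49 and 8.56 (difference -1.56, SE 0.10), and Zm.1408.1.A1_at 9.36 and 9.24 against 7.97 and 7.79 (difference -1.42, SE 0.11). These 3 left 33.4%, 34.0% and 37.4% of the WS signal. Zm.17917.1.A1_at, Zm.3699.5.S1_a_at, Zm.4280.1.A1_at and Zm.11586.1.A1_at followed with differences of -1.24, -1.23, -1.12 and -1.11, or 42.5%, 42.6%, 46.0% and 46.5% of the signal.

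The 9 smallest differences lay between -0.99 and -0.84, with 50.3% to 56.1% of the WS signal left. Zm.301.1.A1_a_at had 9.05 and 9.13 in WS against 8.18 and 8.10, Zm.13607.1.A1_at 11.31 and 11.28 against 10.41 and 10.34, and ZmAffx.1129.1.A1_at 6.28 and 6.34 against 5.41 and 5.39. In these 3 the arrays of a group were at most 0.08 apart. Zm.1416.1.S1_at had 8.80 on both WS arrays against 7.77 and 7.98, and Zm.18276.1.A1_at 6.97 and 7.00 against 6.10 and 6.20. The other 4 of these 9, Zm.10414.1.A1_at, Zm.5848.1.S1_at, Zm.5086.1.A1_a_at and Zm.7094.1.A1_a_at, are nearest to the limit.

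Just inside the limit were Zm.7094.1.A1_a_at (11.52 and 11.69 against 10.82 and 10.56) and Zm.5086.1.A1_a_at (7.22 and 7.02 against 5.94 and 6.32), both with a gap of 0.70, then Zm.10414.1.A1_at (9.39 and 9.22 against 8.43 and 8.49) and Zm.5848.1.S1_at (7.04 and 7.12 against 6.31 and 6.07), both with 0.73. Just outside were Zm.5086.2.S1_at with 0.68, Zm.6763.3.A1_at with 0.66, Zm.19362.1.A1_at and Zm.19203.1.S1_at with 0.62, Zm.4991.1.A1_at with 0.61 and Zm.13610.1.A1_at with 0.60. The values run on across the limit without a break. A further 15 probe sets without a gene met the gap but not the WS level of 6. The widest gap among them was in Zm.4332.1.A1_at, which missed the level by little, with 5.94 and 6.02 in WS against 2.35 on both CCR mutant arrays.

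Beside all tested probe sets, the members' arrays were by median closer together in WS but farther apart in the CCR mutant. The WS arrays were a median of 0.10 apart and the CCR mutant arrays 0.20, against 0.14 and 0.12 over all tested probe sets. Apart from Zm.3141.1.A1_at, the WS arrays of a member were at most 0.32 apart. Neither replicate of a group was always the brighter: with values rounded to 2 decimals, WS replicate 1 was higher in 9 members, WS replicate 2 in 11, and they were equal in 4; CCR mutant replicate 1 was higher in 14 and replicate 2 in 10. In 23 of 24 the gap was wider than the distance between arrays in either group. Choosing members by a gap of at least 0.7 favours this outcome, so nothing is read from that count.

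**Figure D3:**
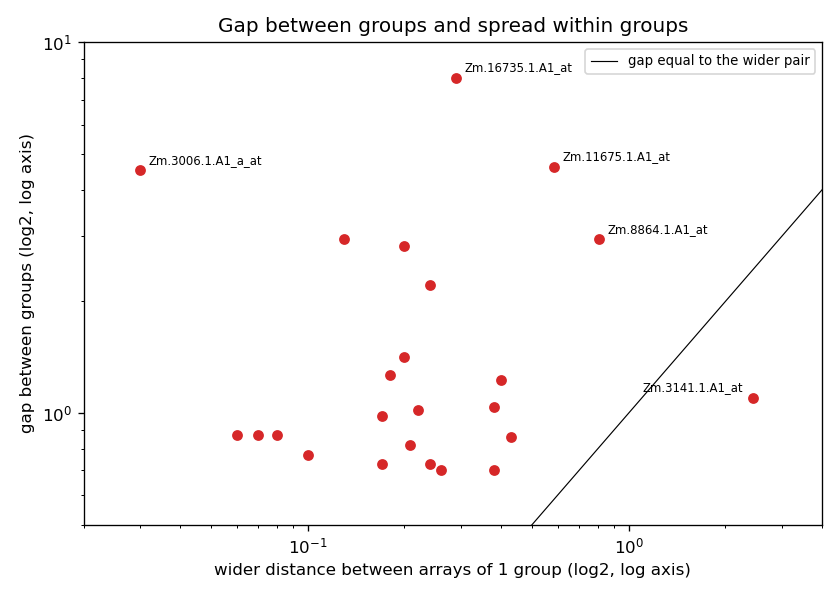
Gap between the groups (vertical, log2 units on a log axis) against the wider of the 2 distances between arrays of 1 group (horizontal, log2 units on a log axis) for the 24 members; the line marks equality. Zm.3141.1.A1_at, with a gap of 1.10 and a distance of 2.45, is the only point below the line. The choice of members by their gap favours points above it.

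In the limma fit across 11085 probe sets, 8 had lower values in the CCR mutant at an adjusted p under 0.05, which is 0.0722%, and 6 of these were members. They were Zm.16735.1.A1_at and Zm.3006.1.A1_a_at (adjusted p = 0.00292 each), Zm.5424.1.S1_at (0.0115), Zm.19192.1.A1_at (0.0175), Zm.11675.1.A1_at (0.0369) and Zm.4111.1.A1_at (0.0495). As the same contrast chose the members, nothing is read from that count or from these p-values. For Zm.16735.1.A1_at and Zm.3006.1.A1_a_at the p-values also depend on CCR mutant values below the reporter level. The 18 members that did not pass had adjusted p-values from 0.121 to 0.777, the last for Zm.3141.1.A1_at. Leaving out either WS array or either CCR mutant array, replicates 1 and 2 in turn, 0 members passed each time, and 0 passed with the replicate number as a block. The other 2 lower probe sets that passed, Zm.4332.1.A1_at and Zm.2107.1.A1_at, also had no gene and were among the 15 with a WS value under 6.

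The same limits were applied to probe sets with a gene. Of all probe sets with both WS values at least 6, 28 of 9335 met the gap in this direction, or 0.300%. Without a gene these were 24 of 8460 (0.284%) and with a gene 4 of 875 (0.457%). The 4 were the probe set of cncr1, both probe sets of the lipoxygenase gene lox1 (gaps of 1.28 and 1.41), and Zm.389.1.S1_at, whose gene has the synonym rip2 in the RefSeq table (8.05 and 7.93 in WS against 6.73 and 7.17). In the opposite direction, with both CCR mutant values at least 6, 51 of 8467 probe sets without a gene met the gap (0.602%). With a gene, 10 of 881 did (1.14%). The differences between these shares were not tested.

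The names of the members show their kinds of probe set. Of 24, 20 carry the letter A before the last number and 4 the letter S, or 83.3% with A, where the 8460 probe sets without a gene that reached 6 in WS had 64.5%. The ending _a_at was found in 5 of 24 (20.8%, against 9.21%), and _s_at or _x_at in 0 of 24 (against 1.93% and 3.70%). The sources used here do not say what the letters A and S stand for, and these shares carry no test.

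The 24 members belong to 24 different cluster numbers. In 16 of these the member is the single probe set on the array, so nothing else there can be set beside it. The other 8 clusters hold 20 further probe sets, of which 15 were tested and 5 had too low values. The rule did not pick these 20, although those without a gene could have been picked and were not. The 15 had a median difference of -0.10, against -0.05 over all tested probe sets. Cluster Zm.3699 alone supplied 7 of the 15, so this median leans on 1 cluster. In all, 12 of the 15 were lower and 3 higher in the CCR mutant, with a range of -1.91 to 0.50. Of the 15, 0 passed in the limma fit in either direction, where 0.153% of all tested probe sets passed, and 5 had an unadjusted p under 0.05, where 6.43% of all tested probe sets did. The groups did not overlap, with the CCR mutant lower, in 8 of the 15, against 23.5% of all tested probe sets. Among these 8, Zm.301.2.A1_at, Zm.3699.1.S1_at, Zm.3699.2.A1_at and Zm.3699.3.S1_at had gaps of only 0.02 to 0.08. Zm.5086.2.S1_at and Zm.7094.1.A1_x_at had gaps of 0.68 and 0.48. Both lox1 probe sets met the limits of the rule and were left out only for having a gene. Probe sets of 1 cluster are related, so nothing is read from this share.

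**Figure D4:**
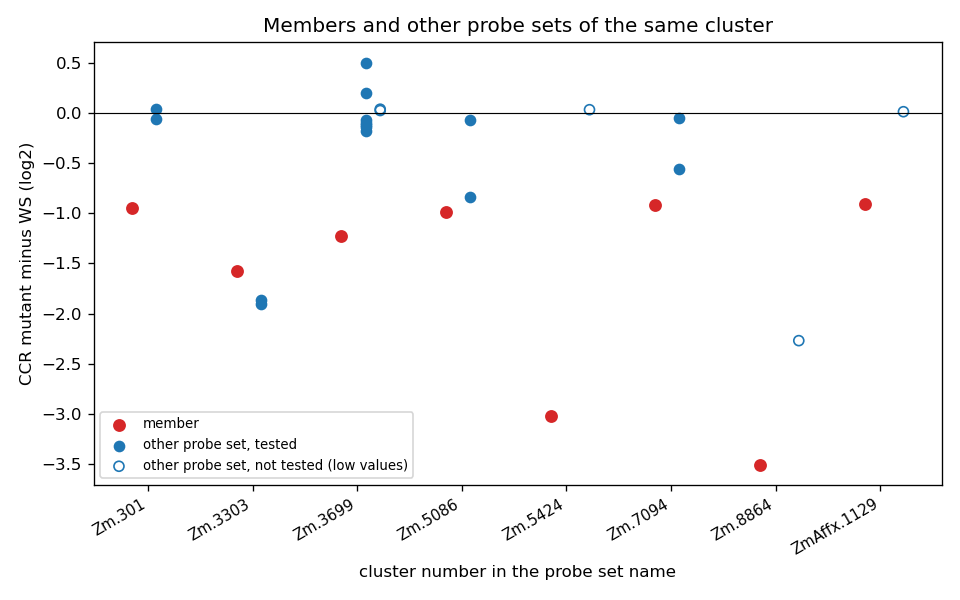
Difference between the groups (CCR mutant minus WS, log2) for the members in red and the other probe sets of the same cluster number in blue, for the 8 clusters with more than 1 probe set; open circles were not tested because of low values. In Zm.3303 all 3 probe sets lie between -1.91 and -1.58, with the member above the others. In every other cluster shown the member lies lowest, which the choice of members favours.

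In cluster Zm.3303 all probe sets were lower. The member Zm.3303.2.A1_at, with a difference of -1.58, stands beside Zm.3303.1.A1_at and Zm.3303.1.A1_x_at, which the platform table pairs with lox1, a lipoxygenase gene of fatty acid oxidation. Zm.3303.1.A1_at had 12.45 and 12.82 in WS against 10.37 and 11.17 (difference -1.87, SE 0.33, limma adjusted p = 0.542). Zm.3303.1.A1_x_at had 12.32 and 12.63 against 10.23 and 10.91 (difference -1.91, SE 0.28, limma adjusted p = 0.437). In all 3 probe sets WS replicate 2 was the brightest array and CCR mutant replicate 1 the dimmest. Related probe sets may bind the same transcript, so they are not independent measurements of it, and the member itself is not called lox1 here.

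In cluster Zm.3699 the other tested probe sets differed in both directions. The member Zm.3699.5.S1_a_at had 7.98 on both WS arrays against 6.94 and 6.56 in the CCR mutant. Of its 9 other probe sets, 4 are paired in the table with a gene whose RefSeq synonyms include rps6, a protein of the small ribosomal subunit. These 4 had values from 10.50 to 12.38 and differences of only -0.14 to 0.20. Zm.3699.2.A1_a_at, with no gene, was higher in the CCR mutant, at 8.41 and 8.32 against 7.95 and 7.78 (difference 0.50, SE 0.10, limma adjusted p = 0.639). The probe sets Zm.3699.4.S1_at and Zm.3699.5.A1_at were below the reporter level on all 4 arrays. A lower signal of the member's size was therefore not seen in the 7 tested probe sets with its cluster number, whose differences ran from -0.18 to 0.50.

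In 3 clusters the member and the other tested probe sets differed to various degrees. Zm.301.1.A1_a_at had a difference of -0.95 (SE 0.08), while Zm.301.2.A1_at (7.11 on both WS arrays against 7.09 and 7.00) and Zm.301.2.A1_x_at (7.25 and 6.90 against 7.11 on both) had differences of -0.07 and 0.04. In cluster Zm.5086, Zm.5086.2.S1_at was close to the member, with 9.22 and 8.95 against 8.23 and 8.27 (difference -0.84, SE 0.12, limma adjusted p = 0.422; member -0.99). Zm.5086.1.A1_at, whose name differs from that of the member only in its ending, had 9.23 and 9.05 against 8.99 and 9.15 (difference -0.07, SE 0.11). In cluster Zm.7094 the member had a difference of -0.92, Zm.7094.1.A1_x_at -0.56 (11.93 and 11.85 against 11.37 and 11.29, SE 0.08, limma adjusted p = 0.422) and Zm.7094.2.S1_at -0.05 (SE 0.08). Probe sets with the same first 2 numbers thus ranged from more than 0.5 below WS to a difference within the spread between replicates.

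The last 3 clusters have 1 other probe set each, all with low values. Zm.8864.1.A1_s_at had 3.86 and 5.29 in WS against 2.31 and 2.30, so it too was above the reporter level in WS, and it was below that level in the CCR mutant. It was not tested, since 1 of 4 arrays reached 4. Zm.5424.1.A1_at (2.07 to 2.11) and ZmAffx.1129.1.S1_at (2.57 to 2.59) were below the reporter level on all 4 arrays, and their names differ from those of the members Zm.5424.1.S1_at and ZmAffx.1129.1.A1_at only in the letter A or S.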

How the data were processed

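The deposited values are log2 values, 1 per probe set and sample, produced by the authors with the GCRMA method, as the submitters' processing notes name it. GCRMA corrects background by probe composition, normalizes by quantiles and summarises probes. The log base is not stated and is inferred from the range of 1.12 to 14.11. The values were not normalized again, and 179 control probe sets were left out. The gap was compared with 0.7 after rounding to 6 decimals, so that 2 members at exactly 0.70 count. Samples were grouped by their titles. Probe sets with a value of at least 4 on at least 2 of 4 arrays (11085) were fitted with limma 3.58.1 in R 4.3.3 (lmFit and eBayes, two-sided, Benjamini-Hochberg over all tested, threshold 0.05; residual degrees of freedom 2, prior 1.70); the script was tested on simulated data. SEs are from this fit. All 24 members passed the filter, which their WS values of at least 6 make certain. Genes come from the platform table of 1453 probe sets, with synonyms from RefSeq for assembly Zm-B73-REFERENCE-NAM-5.0. The members and gene lists were chosen with earlier results of these data known. The text names the 12 members with the widest gap, the 6 with the narrowest, the 6 probe sets just outside, the 6 brightest in either group, those passing limma, those with cluster partners, and CCR genes; the other members, the partners of the limit on WS level and the probe sets with a gene were named after their values were seen. Alternatives were other limits, normalizations, filters and variance models, a replicate block, and leaving out each array.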

Additional observations from a re-analysis of the deposited data

How the results depend on the processing

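The number of members followed the limits: it was 45 with a gap of 0.5, 13 with a gap of 1, and 41 to 85 with 1 array left out, a setting that by construction only adds probe sets. Other WS limits (5 and 7), repeated quantile normalization, median-centred arrays, a gap strictly above 0.7 and leaving out _a_at, _s_at and _x_at gave 19 to 31. The median difference of the members was -1.36 to -1.18 with 1 array left out, and that of the other probe sets of their clusters -0.17 to -0.09. Without any filter the fit called 4 lower probe sets, 2 of them members. With the replicate block it called 0 and 0, and with 1 array left out 0 and 0, where fewer residual degrees of freedom are left. Same-numbered samples deviated together with r = 0.35 across tested probe sets, which are not independent; with 2 pairs this does not show that the numbers pair the samples. No other probe set of the clusters passed under any of these settings (0 in each). Without 1 array, 1 member (Zm.3141.1.A1_at) and 9 of the 15 other tested probe sets moved by over 1.5 times. Of these 9, 4 stayed below 0: -0.109 to -0.0225 for Zm.301.2.A1_at, -0.225 to -0.055 for Zm.3699.1.S1_at, -0.16 to -0.04 for Zm.3699.3.S1_at and -0.095 to -0.005 for Zm.7094.2.S1_at. The other 5 took both signs: -0.14 to 0.21 for Zm.301.2.A1_x_at, -0.165 to 0.025 for Zm.3699.1.S1_x_at, -0.12 to 0.52 for Zm.3699.7.S1_a_at, -0.245 to 0.005 for Zm.3699.7.S1_at and -0.16 to 0.02 for Zm.5086.1.A1_at. The cause of these moves was not tested. The alternatives that left out an array when choosing members, the strict gap and the values of single probe sets were chosen after seeing the data. Signals at or below 3.43 cannot be ordered.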
